A study of Mus musculus with 2 samples.

Results

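A small set of endothelial cells was found among cells drawn from mouse hearts by magnetic selection for CD45, a surface protein of leukocytes that endothelial cells lack. A cell counted as endothelial when the 5 genes Cdh5, Kdr, Egfl7, Cldn5 and Esam together held at least 4 unique molecular identifiers (UMIs, each standing for 1 captured RNA molecule). It also had to hold at most 3 UMIs of the macrophage genes Adgre1, C1qa and C1qb, and to give less than 0.3% of its UMIs to 6 neutrophil genes. The rule took 74 of 5005 kept cells of the splenectomy library and 83 of 6140 kept cells of the sham library, so 157 of 11145 in all. These are shares of 1.48% (exact 95% binomial interval 1.16 to 1.85) after splenectomy and 1.35% (1.08 to 1.67) after sham surgery. Intervals given here cover counting error only.

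Both libraries come from male wild type mice of the strain C57BL/6J, aged 8 weeks, and were made with droplet-based 3' sequencing of single cells. The animals had their spleen removed or had sham surgery, and every heart then went through closure of the left anterior descending artery for 60 min and reperfusion for 24 h. There is 1 library per group, and how many hearts were pooled into each is not stated in the labels. The groups could therefore not be tested against each other, and each difference describes these 2 libraries.

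Endothelial cells line the inside of every blood vessel and of the chambers of the heart, and most of those in heart muscle belong to capillaries. Capillary endothelium of the heart carries fatty acids from the blood to the muscle cells, keeps the wall tight through junction proteins such as VE-cadherin, and reads blood flow and growth factors through VEGF, TIE, Notch and BMP receptors. After ischemia and reperfusion it is also the surface on which leukocytes arrest, and it responds to interferons by making antigen presentation and antiviral proteins.

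Whole libraries held 48024013 UMIs in 5087 barcodes after splenectomy and 53512625 UMIs in 6210 barcodes after sham surgery. The endothelial cells held 632770 and 519123 of them in the splenectomy and sham libraries. Their median depth was 5034 UMIs after splenectomy and 4130 after sham surgery, against 7709 and 5471 UMIs in the other kept cells of the same libraries. A single cell held 80476 UMIs in the splenectomy library, 12.7% of all endothelial UMIs there, and the deepest sham cell held 6.31%. The libraries shared 9 cell barcodes, and 0 barcodes belonged to endothelial cells in both libraries.

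Ptprc, which encodes CD45, was detected in 8 of 74 endothelial cells after splenectomy (10.8%, interval 4.78 to 20.2) and in 9 of 83 after sham surgery (10.8%, 5.08 to 19.6). In the other kept cells the shares were 80.8% after splenectomy and 80.9% after sham surgery. With each cell thinned to 2000 UMIs, Ptprc was seen in 2 of 63 splenectomy and 2 of 68 sham endothelial cells, 3.17% and 2.94%, against 50.5% and 56.4% of the other kept cells. Most of these cells therefore carried no detected RNA of the protein used for the selection.

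The 5 genes of the rule chose the cells, and their values describe that choice. Cdh5, the gene of VE-cadherin (chromosome 8, 104101625 to 104144511, build GRCm38), stood at 820 CPM (counts per 1000000 UMIs summed over cells) in splenectomy and 967 CPM in sham endothelial cells. Kdr, the main VEGF receptor (chromosome 5, 75932827 to 75978458), stood at 687 CPM after splenectomy and 507 CPM after sham surgery. Egfl7, an endothelial matrix protein, Cldn5, a tight junction protein, and Esam, an adhesion protein, lay between 384 and 1002 CPM. In the other kept cells each of the 5 was at or below 2.72 CPM. All 5 genes were detected in 34 splenectomy and 33 sham cells, and only 1 of them in 2 splenectomy cells and 1 sham cell.

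Few cells lay at the edge of the rule. Exactly 4 UMIs of the selecting genes were found in 4 splenectomy and 4 sham cells, and 5 UMIs in 3 and 6 cells. Just below it, 11 splenectomy and 4 sham cells held 3 UMIs, of which 0 and 1 had a Ptprc UMI. The macrophage limit left out 5 splenectomy and 4 sham cells that had enough endothelial UMIs, and the neutrophil limit left out 1 and 4.

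Markers that the rule did not use sit in the same cells. Of 18 other endothelial genes, at least 3 were detected in 70 of 74 splenectomy and 80 of 83 sham cells, with a median of 11 in each library. The same held for 2.25% of the other kept cells after splenectomy and 2.06% after sham surgery. The label goes against the data in some cells. Pan-leukocyte UMIs outnumbered those of the 18 genes in 5 of 74 splenectomy and 6 of 83 sham cells, all of them with UMIs of other cell types as described next. One of the 5 was a splenectomy cell of 31919 UMIs with 0 UMIs of the 18 genes, 75 UMIs of Msln and 60 of Krt8, both markers of the mesothelial covering of the heart.

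Some of the chosen cells also held UMIs of other cell types, and they were among the deepest. Marker UMIs of B cells were found in 4 splenectomy and 3 sham cells, of other leukocytes in 4 and 8, and of pericytes and smooth muscle in 8 and 7. Mesothelial markers were found in 1 splenectomy and 0 sham cells. Prox1, the regulator of lymphatic identity, together with at least 5 UMIs of the lymphatic list was found in 2 splenectomy and 0 sham cells. In all, 19 splenectomy and 16 sham cells held such UMIs. They gave 57.3% and 35.9% of the endothelial UMIs of the splenectomy and sham libraries, and their median depths were 13966 and 12266 UMIs. The remaining 55 splenectomy and 67 sham cells had medians of 4052 and 3647 UMIs, and Ptprc was detected in 0 (interval up to 6.49%) and 1 of them. Ptprc was among the leukocyte genes that made the division. They are called cells without other marker UMIs, for the cell types just listed only. Fibroblast, heart muscle, erythroid and platelet markers were not part of the division, and UMIs of these remained. This division was added after the data had been seen, and each comparison of the groups is given for all cells and for those 55 and 67.

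**Figure D1:**
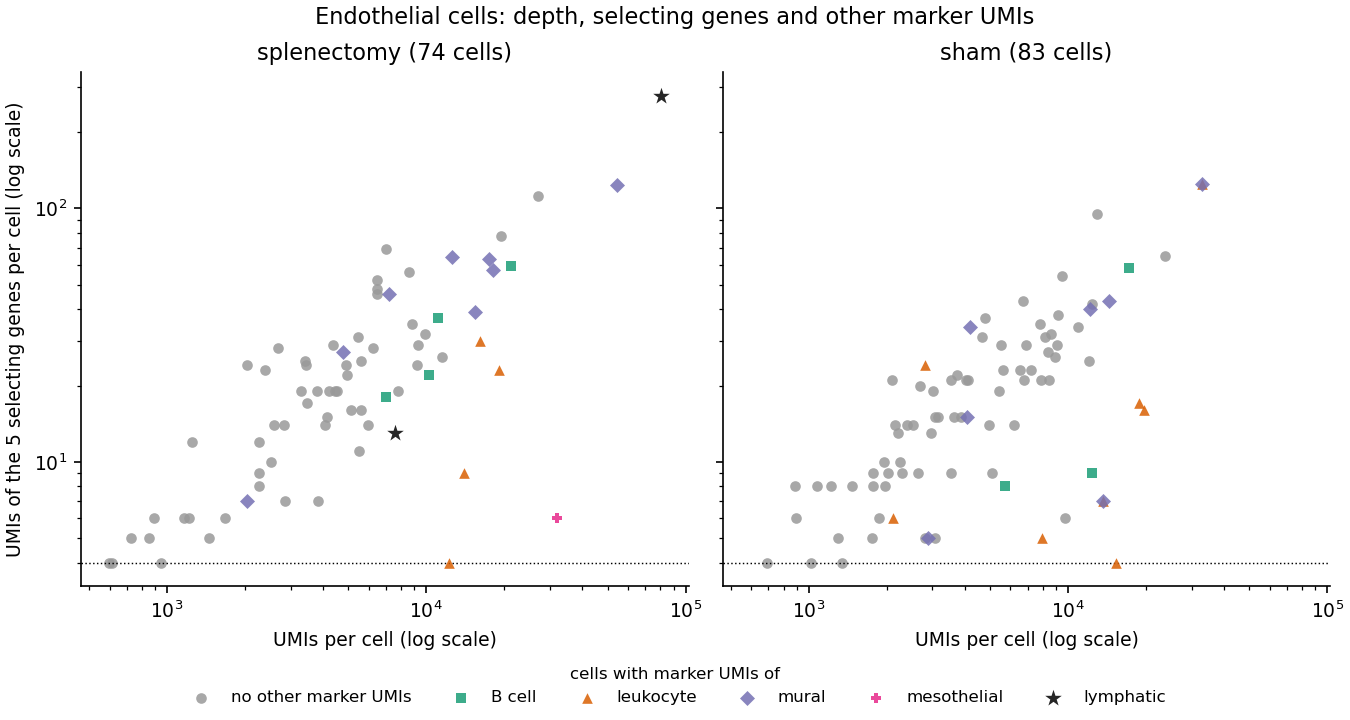
Each point is 1 endothelial cell, with its UMIs on the horizontal axis and the UMIs of the 5 selecting genes on the vertical axis, both on log scales, for 74 splenectomy cells (left) and 83 sham cells (right). Shapes mark the cells with UMIs of other cell types, a cell with more than 1 kind carries several shapes, the dotted line is the limit of 4 UMIs, and the splenectomy cell of 80476 UMIs stands apart at the upper right.

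The lists of markers moved with this division. Pan-leukocyte genes summed to 1184 CPM in all splenectomy and 1915 CPM in all sham endothelial cells, with 11 of 11 genes detected in each, and to 193 and 237 CPM in the 55 splenectomy and 67 sham cells. Pericyte and smooth muscle genes summed to 1274 CPM after splenectomy and 909 CPM after sham surgery, and to 37.0 and 63.1 CPM in the 55 and 67 cells. Platelet genes were at 94.8 CPM in all splenectomy and 1023 CPM in all sham cells. A single sham cell of 19637 UMIs held 471 UMIs of Pf4, a platelet and macrophage chemokine. The part of such cells in each result was not tested other than by leaving them out.

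Against the other kept cells of their own library, the endothelial cells were higher by at least 2-fold in both libraries in 999 of 3662 genes with enough UMIs (27.3%), and lower in 211 (5.76%). As the cells had been picked by their expression, this is a description and not a test. All 18 pan-endothelial genes other than those of the rule were higher, with a median log2 ratio of 9.16 after splenectomy and 8.78 after sham surgery, against 0.48 and 0.51 over all 3662 genes. All 10 measured pan-leukocyte genes were lower, with medians of -3.31 after splenectomy and -2.70 after sham surgery.

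Receptors and their partners were mostly higher in the endothelial cells. Tek, the angiopoietin receptor TIE2, stood at 183 CPM in splenectomy and 171 CPM in sham endothelial cells. Ptprb, the phosphatase that restrains TIE2, stood at 466 and 474 CPM in the splenectomy and sham cells. In both libraries 5 of 5 measured TIE pathway genes and 6 of 7 VEGF receptor genes were higher than in the other cells. The same held for 6 of 7 Notch genes and 6 of 9 BMP and TGF-beta receptor genes. The VEGF count includes Kdr, a gene of the rule.

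Genes of the vessel wall followed the same direction. Junction genes were higher in 11 of 11 cases and basement membrane genes in 12 of 12. The junction list holds Cdh5, Cldn5 and Esam, which had chosen the cells, so their part of this count was set by the rule. Sparc, a matrix protein, stood at 2331 CPM in splenectomy and 2502 CPM in sham cells. Cxcl12, the chemokine that binds CXCR4, stood at 1179 CPM in splenectomy and 1913 CPM in sham endothelial cells, against 1.52 and 2.59 CPM in the other kept cells. Transcription regulators of endothelium such as Erg and Sox18 were higher in 13 of 16 cases, with medians of 5.50 after splenectomy and 5.41 after sham surgery.

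**Figure D2:**
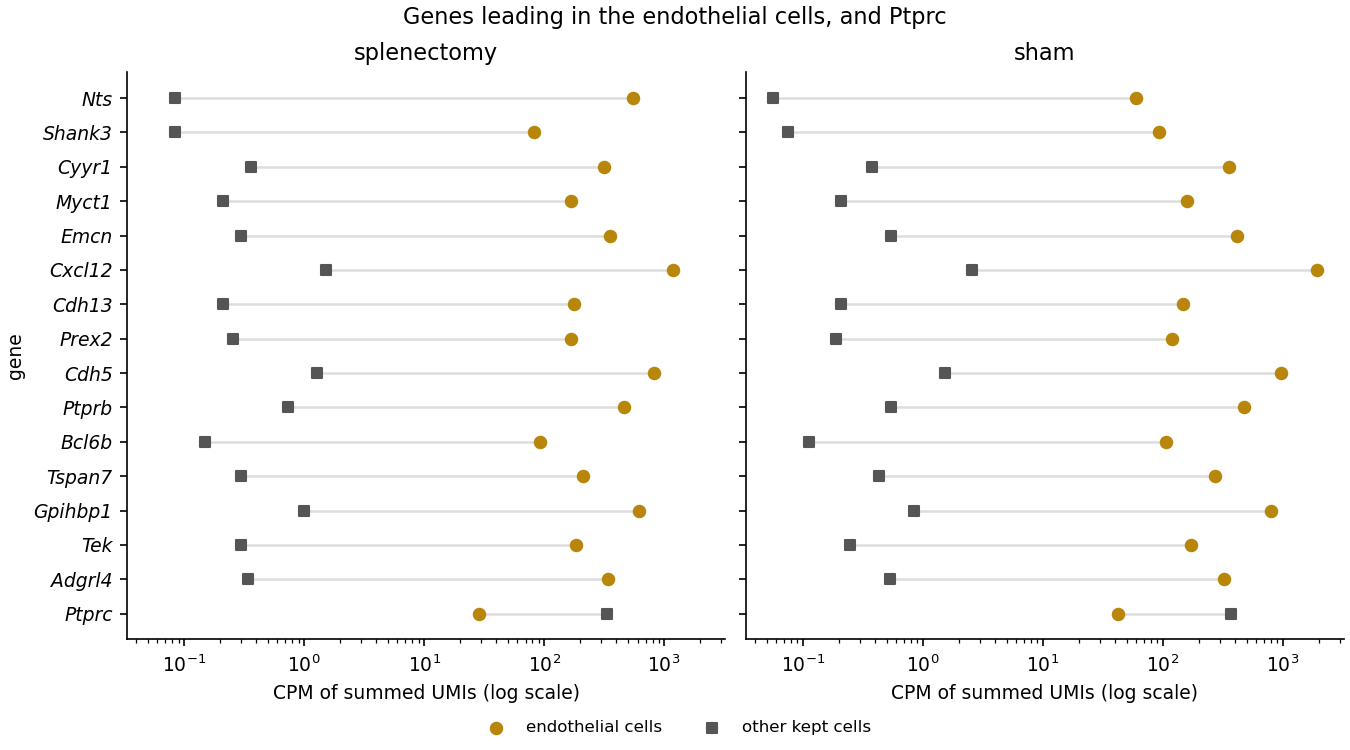
CPM of summed UMIs on a log axis for the 15 genes with the highest ratio to other kept cells, and for Ptprc, in endothelial cells (circles) and other kept cells (squares) of the splenectomy (left) and sham (right) libraries. For the 15 genes the circles lie far to the right of the squares in both libraries, and for Ptprc the order is the other way round.

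Genes of the capillary list stood out against the other kept cells. In both libraries 11 of 12 measured genes were higher, with a median log2 ratio of 8.23 after splenectomy and 8.07 after sham surgery. The list holds Kdr, which had chosen the cells and was higher by the rule. The mere presence of the list said little: at least 2 of its UMIs were held by 73 of 74 splenectomy and 82 of 83 sham endothelial cells, but also by 57.8% and 48.6% of the other kept cells. Rgcc, a cell cycle regulator on the list, stood at 430 CPM in splenectomy and 643 CPM in sham endothelial cells, against 405 and 301 CPM in the other kept cells.

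Fabp4, which carries fatty acids through the capillary cell, was detected in 92.1% of splenectomy and 95.6% of sham endothelial cells thinned to 2000 UMIs, and in 1.69% and 2.54% of B cells treated alike. Without thinning the shares were 95.9% and 95.2%, and 3.20% and 4.03% of B cells, whose median depths were 3857 and 3748 UMIs. Its summed level was 8347 CPM in splenectomy and 8794 CPM in sham endothelial cells, against 32.5 and 22.8 CPM in the other kept cells. Gpihbp1, the capillary anchor of lipoprotein lipase, stood at 623 CPM after splenectomy and 796 CPM after sham surgery, and Cd36, the fatty acid receptor, at 1492 and 1422 CPM.

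Cells differed widely in how much of their RNA went to this programme. In the 55 splenectomy cells without other marker UMIs the capillary list took a median of 1.91% of the UMIs of a cell, from 0.139% to 5.72%, and in the 67 sham cells 2.10%, from 0.0926% to 5.39%. These ranges overlap almost entirely. The medians of the other kept cells were 0.0340% after splenectomy and 0.0261% after sham surgery.

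Part of that variation ran along Apln, the gene of apelin, a peptide made by sprouting capillary cells. Among cells without other marker UMIs, 10 of 55 splenectomy and 18 of 67 sham cells held an Apln UMI. They were deeper than the rest, with medians of 6105 and 7453 UMIs, against 3462 and 3026 UMIs in the cells without it, so levels and not shares of cells are given. In 3 of the 10 splenectomy and 6 of the 18 sham cells a single Apln UMI placed the cell. The genes below were chosen after their values were seen, and no test was made.

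Some genes of capillary fatty acid uptake were lower in the cells with Apln. Fabp4 stood at 4222 CPM with Apln and 14719 CPM without it after splenectomy, and at 3636 and 16123 CPM after sham surgery. Cd36 stood at 658 against 2715 CPM after splenectomy and at 461 against 2847 CPM after sham surgery. Aqp1, a water channel of capillary cells, stood at 242 against 905 CPM after splenectomy and at 188 against 1007 CPM after sham surgery. The flow-responsive factor Klf2 was lower in the cells with Apln too, at 1384 against 2451 CPM after splenectomy and at 572 against 1735 CPM after sham surgery. Kdr, a gene of the rule, stood at 571 against 1202 CPM after splenectomy and at 391 against 770 CPM after sham surgery. As its values chose the cells, nothing is drawn from it.

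Other genes ran the opposite way, differed little or turned between the libraries. Pgf, a growth factor that binds the VEGF receptor FLT1, stood at 1367 CPM with Apln and 61.3 CPM without it after splenectomy, and at 1200 against 206 CPM after sham surgery. Angpt2, a TIE2 ligand stored in endothelium, stood at 225 against 37.7 CPM after splenectomy, and after sham surgery at 181 CPM against 0 UMIs in 49 cells. Cdh5, a gene of the rule, stood at 1280 against 1174 CPM after splenectomy and at 1040 against 1202 CPM after sham surgery. Gpihbp1, also a gene of capillary fat uptake, stood at 1125 against 1023 CPM after splenectomy and at 858 against 1060 CPM after sham surgery. Car4, a capillary carbonic anhydrase, stood at 156 CPM on both sides after splenectomy, and after sham surgery held 2 UMIs in the 18 cells with Apln against 39 UMIs in the 49 cells without it. Id1, a target of BMP signalling, stood at 1609 CPM with Apln and 759 CPM without it after splenectomy, but at 97.7 against 617 CPM after sham surgery.

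**Figure D3:**
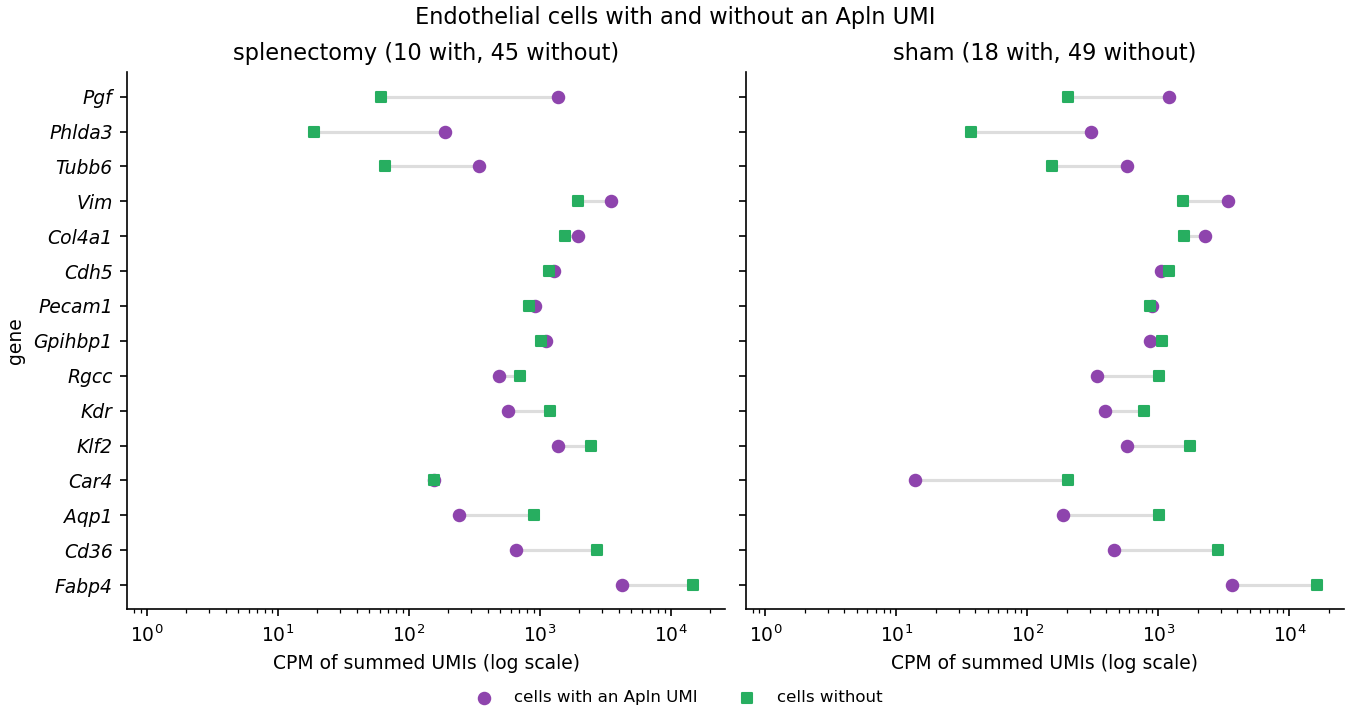
CPM of summed UMIs on a log axis for 15 genes in endothelial cells without other marker UMIs, split into cells with an Apln UMI (circles) and cells without (squares), for the splenectomy (left) and sham (right) libraries. Pgf lies far to the right in the cells with Apln, Fabp4 and Cd36 lie to the left, and Cdh5, Pecam1 and Gpihbp1 nearly coincide in both panels.

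The comparison of splenectomy with sham surgery asks whether loss of the spleen goes with other expression in these vessel cells. Over all endothelial cells, 2182 genes had at least 50 UMIs in the higher library, of which 78 were at least 2-fold higher after splenectomy (3.57%) and 35 were lower (1.60%). Single cells carried many of these. At least 50% of the UMIs of the higher library lay in 1 cell for 42 of the 78 higher and 6 of the 35 lower genes. In the 55 and 67 cells without other marker UMIs, 1153 genes were compared, of which 18 were higher (1.56%) and 20 lower (1.73%), and 7 and 1 of these had at least 50% of their UMIs in 1 cell.

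Several genes that led the comparison of all cells had most of their UMIs in a single cell. Nts, the peptide neurotensin, had a log2 ratio of 3.21 over all cells and 338 of its UMIs in the deepest cell, which also held 29 UMIs of Prox1 and 545 of the lymphatic list. Without cells of other marker UMIs its ratio was -1.21. Plvap, the diaphragm protein of fenestrated and venous endothelium, stood at 2.11 (interval 1.60 to 2.65) over all cells with 63% of its splenectomy UMIs in 1 cell, and at 1.03 in the 55 and 67 cells with 68.3% of the splenectomy UMIs in 1 cell. Ccl12 (-5.12) and Pf4 (-3.93), chemokines of macrophages and platelets, had 89% and 92% of their sham UMIs in 1 cell.

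For gene lists, genes with at least 20 UMIs in the higher library were counted at 1.5-fold. Over all endothelial cells 558 of 5009 such genes were higher (11.1%) and 548 lower (10.9%), with a median log2 ratio of -0.00. Without cells of other marker UMIs 259 of 3057 were higher (8.47%) and 417 lower (13.6%), with a median of -0.07. In the other kept cells 503 of 12741 genes were higher (3.95%) and 617 lower (4.84%), with a median of -0.01.

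**Figure D4:**
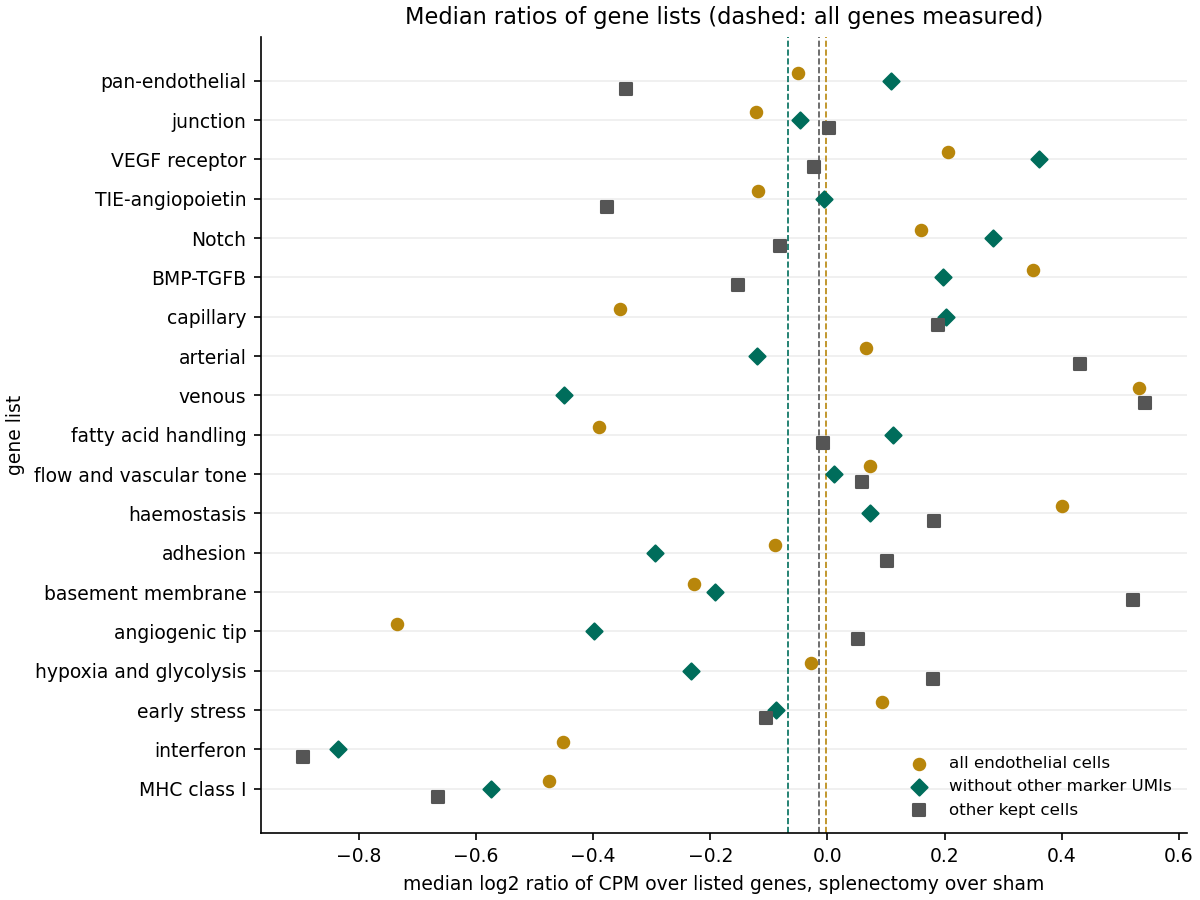
Median log2 ratio of splenectomy over sham surgery for 19 gene lists, in all endothelial cells, in endothelial cells without other marker UMIs and in the other kept cells, with the medians over all genes as dashed lines. The interferon and MHC class I lists lie below 0 in the 3 kinds of cells, from -0.45 to -0.89 and from -0.48 to -0.67, and the capillary, venous and fatty acid medians are among those that change sign when cells with other marker UMIs are left out.

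Interferon-induced genes were lower after splenectomy. Of 54 listed genes, 46 had enough UMIs over all endothelial cells, of which 15 were lower and 3 higher, with a median log2 ratio of -0.45. Without cells of other marker UMIs 22 of 33 measured genes were lower and 0 higher, with a median of -0.83. The other kept cells went the same way, with 46 of 54 genes lower, 0 higher and a median of -0.89, so this difference was not limited to endothelium.

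Iigp1, an interferon-inducible GTPase of host defence (chromosome 18, 60376027 to 60392634), was close to absent from the other kept cells, at 3.37 CPM after splenectomy and 7.03 CPM after sham surgery. In the 55 splenectomy cells it held 85 UMIs in 21 cells, or 315 CPM, and in the 67 sham cells 256 UMIs in 39 cells, or 769 CPM, a log2 ratio of -1.29 (interval -1.66 to -0.93). The sham level was spread over many cells, with 10.5% of the UMIs in the highest cell. Over all endothelial cells thinned to 2000 UMIs it was detected in 30.2% after splenectomy and 42.6% after sham surgery, and in 0 of 118 B cells of each library, which allows up to 3.08%. Unthinned, the shares were 39.2% and 59.0%, against 0% and 1.61% of B cells.

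Further members gave like values in the cells without other marker UMIs. Psmb8, a subunit of the immunoproteasome that cuts peptides for MHC class I, stood at 200 CPM after splenectomy and 469 CPM after sham surgery (-1.23). Xaf1, a pro-apoptotic protein, stood at 77.8 CPM and 198 CPM (-1.35), and the guanylate binding protein Gbp7 at 104 CPM and 237 CPM (-1.19) in the splenectomy and sham cells. Igtp, a GTPase of the same kind as Iigp1, held 6 UMIs in 5 splenectomy cells and 33 UMIs in 25 sham cells (-2.16). Gbp4, another guanylate binding protein, held 7 UMIs in 5 splenectomy cells and 38 UMIs in 19 sham cells (-2.14). For these genes the sham cells were higher in UMIs, in cells and in CPM.

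Ifit1, which binds foreign RNA, stood at 137 CPM in splenectomy and 297 CPM in sham cells without other marker UMIs (-1.12, interval -1.70 to -0.56), with 59.5% of the splenectomy UMIs in 1 cell. Isg15, a ubiquitin-like protein, stood at 489 CPM after splenectomy and 457 CPM after sham surgery (0.10, interval -0.25 to 0.44), and Rsad2, the antiviral protein viperin, at 222 CPM and 210 CPM (0.08). In the other kept cells Isg15 (-0.61) and Rsad2 (-1.12) were lower after splenectomy. Genes of 1 list therefore did not all share 1 direction in the endothelial cells. With all endothelial cells counted, Isg15 was higher after splenectomy (0.58), and 52% of its splenectomy UMIs came from the deepest cell.

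The 250 bases before the RefSeq start (build GRCm38.p6) of 4 of these genes are shown because the interferon-stimulated response element is the known control sequence of such genes. Capitals mark matches to GAAA, any 2 bases and GAAA again, read on either strand, in sequences written 5' to 3' along the strand of the gene. The first 3 genes were lower after splenectomy and the fourth was not.
Ifit1, chr19:34640639-34640888, plus strand: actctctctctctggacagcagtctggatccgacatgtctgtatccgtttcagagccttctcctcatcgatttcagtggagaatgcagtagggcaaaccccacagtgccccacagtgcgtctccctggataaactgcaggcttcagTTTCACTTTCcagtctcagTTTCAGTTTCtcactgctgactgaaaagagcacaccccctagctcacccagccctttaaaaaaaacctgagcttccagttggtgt
Irgm1, chr11:48871421-48871670, minus strand: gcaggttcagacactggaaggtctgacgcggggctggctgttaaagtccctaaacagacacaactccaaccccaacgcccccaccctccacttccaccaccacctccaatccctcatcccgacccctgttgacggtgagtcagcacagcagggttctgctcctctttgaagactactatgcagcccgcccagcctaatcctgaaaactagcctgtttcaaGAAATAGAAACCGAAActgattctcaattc
Gbp7, chr3:142530086-142530335, plus strand: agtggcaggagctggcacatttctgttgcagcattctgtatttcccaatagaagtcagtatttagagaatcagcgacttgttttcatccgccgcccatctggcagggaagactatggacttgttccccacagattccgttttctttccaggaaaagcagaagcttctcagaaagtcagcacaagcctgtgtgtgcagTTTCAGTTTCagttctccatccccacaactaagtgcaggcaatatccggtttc
Isg15, chr4:156200819-156201068, minus strand: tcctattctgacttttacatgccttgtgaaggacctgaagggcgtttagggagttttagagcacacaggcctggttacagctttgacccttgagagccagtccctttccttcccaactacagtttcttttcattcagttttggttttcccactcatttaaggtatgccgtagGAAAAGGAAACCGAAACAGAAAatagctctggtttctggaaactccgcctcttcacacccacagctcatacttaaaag

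The motif was found in the same window of 978 of 32851 mouse promoters (2.98%). Counted by gene, 19 of the 40 interferon genes that the RefSeq table holds had it (47.5%), against 936 of all 27025 genes (3.46%). Ifit1 has 2 separate matches, Irgm1 has 2 that overlap and Gbp7 has 1. Isg15, whose level hardly differed between the groups, carries several overlapping matches, and Xaf1 and Psmb8, which were lower after splenectomy, have none in this window. A match is a description of the letters and not a binding site or a cause.

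Cell by cell, the interferon list took a median of 0.545% of the UMIs of the 55 splenectomy cells, with quartiles of 0.343% and 0.782%, and 0.991% of the UMIs of the 67 sham cells, with quartiles of 0.553% and 1.57%. The ranges overlap, from 0% to 1.79% after splenectomy and from 0.0507% to 3.03% after sham surgery. The medians of the other kept cells were 0.305% after splenectomy and 0.699% after sham surgery. The endothelial median lay above the median of the other kept cells in each library, but the other kept cells reached 10.1% and 9.25%, beyond any of these endothelial cells.

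MHC class I genes were lower as well. Of 11 measured genes 5 were lower and 0 higher after splenectomy, both over all endothelial cells (median -0.48) and without cells of other marker UMIs (median -0.57), and in the other kept cells 7 of 12 were lower (median -0.67). B2m, the shared light chain of MHC class I, stood at 1567 CPM in the 55 splenectomy cells and 2334 CPM in the 67 sham cells (-0.57, interval -0.75 to -0.40). H2-K1, a heavy chain, stood at 1245 CPM and 1793 CPM in the splenectomy and sham cells (-0.53, interval -0.72 to -0.33). MHC genes have close copies, and UMIs could have been shared out between them.

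**Figure D5:**
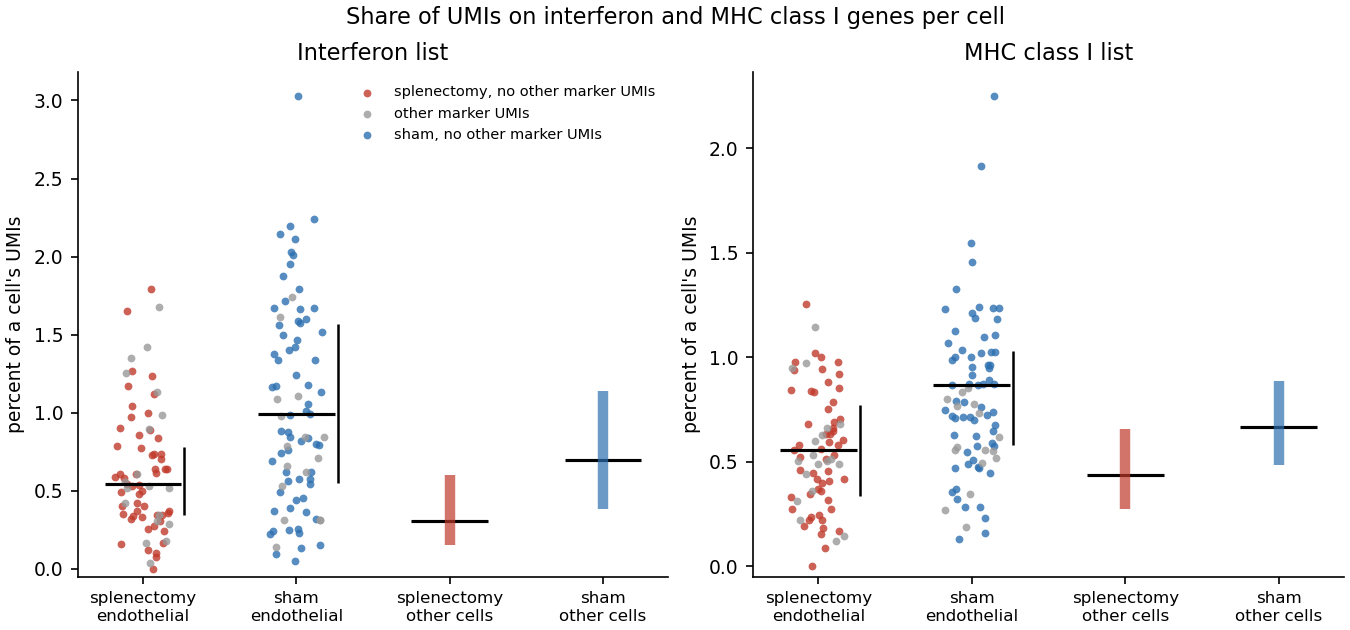
Percent of the UMIs of each endothelial cell that fell on the interferon list (left) and on the MHC class I list (right), with grey points for cells with other marker UMIs, horizontal bars for medians and vertical lines for quartiles over the 55 splenectomy and 67 sham cells without them, beside the same for the other kept cells. The interferon medians are 0.545% after splenectomy and 0.991% after sham surgery, and the MHC class I medians 0.559% and 0.867%, with wide overlap between cells.

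Chemokines and adhesion molecules of the vessel wall were mixed. In the cells without other marker UMIs the chemokine list had 2 of 8 genes higher and 2 lower, with a median of -0.00, and Cxcl12 stood at 1971 CPM after splenectomy and 2685 CPM after sham surgery (-0.45, interval -0.60 to -0.29). Cxcl9, an interferon-gamma-induced chemokine for T cells, held 14 UMIs in 8 splenectomy cells and 127 UMIs in 9 sham cells (-2.88, interval -3.79 to -2.08), but 74.8% of the sham UMIs came from 1 cell. Selp, the gene of P-selectin on which leukocytes roll, held 0 UMIs in 55 splenectomy cells and 39 UMIs in 4 of the 67 sham cells. With the 0 set to 3 UMIs, the splenectomy level was 3.40 lower on the log2 scale, a value that leaves out the counting error of the 39 sham UMIs. Vcam1, an adhesion molecule for monocytes and lymphocytes, held 6 UMIs in 3 splenectomy cells and 31 UMIs in 7 sham cells (-2.07). The adhesion list as a whole had 2 of 9 genes lower and 0 higher, with a median of -0.29, and the 2 lower genes, Selp and Vcam1, had UMIs in at most 7 cells of a library.

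Genes of sprouting endothelium were lower after splenectomy in summed UMIs but not in the typical cell. Over all endothelial cells 7 of 12 measured genes were lower and 0 higher, with a median of -0.73. Without cells of other marker UMIs 5 of 11 were lower and 1 higher, with a median of -0.40, and in the other kept cells 2 were lower and 2 higher of 11 (0.05), at levels near 0 for most of these genes. Cell by cell the list took a median of 0.116% of the UMIs in the 55 splenectomy cells and 0.0791% in the 67 sham cells, with maxima of 0.633% and 1.02%. Apln held 45 UMIs in 10 splenectomy cells and 129 UMIs in 18 sham cells, or 167 CPM and 387 CPM (-1.22, interval -1.74 to -0.72). Pgf stood at 341 CPM after splenectomy and 634 CPM after sham surgery (-0.90, interval -1.26 to -0.54). Angpt2, at 77.8 CPM and 78.1 CPM (-0.01), and Dll4, a Notch ligand of tip cells (-0.24), were close to equal, and Aplnr, the apelin receptor, was higher (0.87) at 37 and 25 UMIs.

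Receptor genes gave no common direction in the cells without other marker UMIs. Flt1, the decoy VEGF receptor, stood at 1411 CPM after splenectomy and 1099 CPM after sham surgery (0.36, interval 0.15 to 0.57). Kdr, whose values chose the cells, stood at 1067 CPM and 607 CPM (0.81), and nothing is drawn from it. With all endothelial cells counted, these ratios were 0.44 for Kdr and -0.08 for Flt1. The VEGF list, which holds Kdr, had 2 of 7 genes higher and 1 lower, and the TIE list had 0 of 5 in either direction. Notch genes were higher in 2 of 7 cases and lower in 0. Among the higher was Nrarp, a feedback inhibitor of Notch, at only 26 UMIs after splenectomy and 16 after sham surgery. Hes1, a Notch target, was at a log2 ratio of 0.55, short of 1.5-fold.

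Several targets of BMP signalling were higher after splenectomy in the cells without other marker UMIs. Id1, a BMP-induced inhibitor of differentiation factors (chromosome 2, 152736251 to 152737410), held 254 UMIs in 41 splenectomy cells and 131 UMIs in 36 sham cells, or 941 CPM and 393 CPM (1.26, interval 0.95 to 1.57), with 18.9% and 15.3% of the UMIs in the highest cell. Id3 stood at 837 CPM after splenectomy and 508 CPM after sham surgery (0.72), and Smad7, an inhibitor of the same pathway, at 215 CPM and 108 CPM (0.99). The list had 4 of 10 genes higher and 0 lower, with a median of 0.20. Over all endothelial cells Id1 stood at 0.59, Id3 at 0.51 and Smad7 at 0.31, with 2 of 12 genes of the list higher and 2 lower. In the other kept cells Id1 (-0.15) and Id3 (0.17) hardly differed. Whether Id1 was higher or lower in cells with an Apln UMI also differed between the libraries.

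Genes of blood flow and vessel tone were mixed. Klf2, the flow-induced factor, stood at 2222 CPM in the 55 splenectomy cells and 1234 CPM in the 67 sham cells (0.85, interval 0.66 to 1.03), against 0.22 over all endothelial cells. Nos3, the endothelial nitric oxide synthase, held 52 UMIs in 28 splenectomy cells and 34 UMIs in 20 sham cells (0.92, interval 0.26 to 1.58). Thinned to 2000 UMIs it was detected in 34.9% of all splenectomy and 11.8% of all sham endothelial cells, and in 0 of 118 B cells of each library, again allowing up to 3.08%. Unthinned, the shares were 55.4% and 31.3%, against 0% and 0.806% of B cells. Edn1, the vasoconstrictor endothelin, was lower, at 111 CPM after splenectomy and 201 CPM after sham surgery (-0.86, interval -1.53 to -0.22). The list had 2 of 15 genes higher and 2 lower, and its median was 0.01, since genes such as Klf4 (-0.05) and Cav1, the coat protein of caveolae (-0.23), hardly differed.

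Identity genes differed little. Pan-endothelial genes other than those of the rule had a median log2 ratio of -0.05 over all endothelial cells and 0.11 without cells of other marker UMIs, with Plvap, carried largely by 1 splenectomy cell, as the 1 gene of 18 past 1.5-fold in both. Junction genes, among them Cdh5, Cldn5 and Esam of the rule, had 0 of 11 past it in either direction, with medians of -0.12 and -0.05. The capillary median was -0.35 over all cells and 0.20 without cells of other marker UMIs, and the fatty acid median -0.39 and 0.11, so their signs rest on which cells are counted. Fabp5, a fatty acid binding protein, was at -0.94 over all cells, where 60% of its sham UMIs came from 1 cell, and at 1.04 in the 55 and 67 cells. In the latter 31.9% of its splenectomy UMIs lay in 1 cell, and it was detected in 34 splenectomy and 48 sham cells. Basement membrane genes had medians of -0.23 and -0.19, with 2 of 13 genes higher and 2 lower over all cells, and 2 of 12 higher and 3 lower without cells of other marker UMIs.

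Immediate early and stress genes, which cells switch on quickly when disturbed, were mixed. Their list had a median of 0.09 over all endothelial cells, -0.09 without cells of other marker UMIs and -0.10 in the other kept cells. Fos, an immediate early factor, stood at 2148 CPM after splenectomy and 1367 CPM after sham surgery in the 55 and 67 cells (0.65), whereas Hsph1, a heat shock protein, held 7 and 42 UMIs (-2.28). Nr4a1, another immediate early factor, stood at 278 CPM after splenectomy and 123 CPM after sham surgery (1.17). It was detected in 19 splenectomy and 17 sham cells, with 30.7% and 26.8% of its UMIs in the highest cell. The median mitochondrial share of an endothelial cell was 2.41% after splenectomy and 1.86% after sham surgery, against 1.80% and 1.16% in the other kept cells, and their part in these differences was not tested.

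RNA of heart muscle cells was higher in summed UMIs in the splenectomy cells. Cardiomyocyte genes summed to 778 CPM in the 55 splenectomy cells and 327 CPM in the 67 sham cells, with Tnnt2, a troponin of heart muscle, at 189 CPM and 39.1 CPM (2.27, interval 1.38 to 3.28) and Myl2, a myosin light chain, at 215 CPM and 78.1 CPM (1.46). The highest cell held 52 of 210 cardiomyocyte UMIs after splenectomy and 14 of 109 after sham surgery. Tnnt2 was detected in 15 of the 55 splenectomy and 9 of the 67 sham cells, and Myl2 in 14 and 20. In the splenectomy cells 29.4% of the Tnnt2 and 31.0% of the Myl2 UMIs lay in 1 cell. Erythroid genes summed to 504 CPM and 144 CPM in the same splenectomy and sham cells, where 134 of 136 and 41 of 48 UMIs lay in 1 cell each. Fibroblast genes summed to 478 CPM in the splenectomy and 66.1 CPM in the sham cells, and 1 splenectomy cell held 124 of the 129 UMIs. Mgp, a matrix protein of large vessels and fibroblasts, was at 1.57, with 80.5% of its splenectomy UMIs and 66% of its sham UMIs in 1 cell each. The part of such RNA in the differences between the groups was not tested.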

How the data were processed

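Both libraries were deposited as counts of UMIs per gene and barcode for 32285 features, made with Cell Ranger 5.0.0 per the file headers and the build mm10 per the submitters' processing notes. No header or label names the authors' annotation, and gene positions are from GENCODE on GRCm38. One library is labelled with splenectomy, and the other, taken as sham, with ischemia and reperfusion alone. Cells with at least 200 genes and at most 20% mitochondrial UMIs were kept. The members and the 38 gene lists were chosen with earlier results of these data known.

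Counts were summed over cells and given as CPM, and ratios are splenectomy over sham surgery on the log2 scale with exact 95% conditional binomial intervals. These take UMIs as independent, so the share of the highest cell is given where it is large. A count of 0 was replaced by 3 UMIs of the library. Genes needed 50 UMIs in the higher library for the 2-fold count and 20 for the 1.5-fold count in lists. Named genes are the 12 highest and 12 lowest by ratio, the 15 leading ones against other kept cells, and genes of the lists. Those against other kept cells needed 100 UMIs in the endothelial cells of both libraries together. The 12 highest and 12 lowest needed 50 UMIs and 10% of the cells in the higher library, and a 1.5-fold difference.

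B cells, the background for shares, held at least 3 UMIs of Cd79a, Cd79b and Ms4a1. Other marker UMIs were called at 3 of these genes, 10 leukocyte UMIs making up 0.1% of the cell, 4 of pericyte or mesothelial genes, or 1 of Prox1 with 5 of the lymphatic list. Doublets were not removed. As an alternative, the 200 splenectomy and 302 sham cells with the highest Scrublet scores were left out, numbers set by the count of kept cells. Thinning left out cells under 2000 UMIs. The 2-fold calls and the intervals were tested on simulated counts that also take UMIs as independent. The choice of cells, the lists and the thinning were not tested in this way. The tools were scanpy 1.11.5 for Scrublet, scipy 1.17.1 for intervals, numpy 2.4.6 and pandas 2.3.3 for sums, matplotlib 3.10.9 for plots, and python 3.11.15.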

Additional observations from a re-analysis of the deposited data

How the results depend on the processing

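No paired analysis was possible because each group has 1 library. Shares of kept cells were 1.08% after splenectomy and 1.01% after sham surgery with no macrophage UMI allowed, and 1.10% after splenectomy without cells of other marker UMIs. Genes 2-fold higher over all cells numbered 50 with no macrophage UMI, 31 without the highest Scrublet scores and 49 without the deepest cell. They numbered 18 without cells of other marker UMIs, 29 at 100 UMIs and 1805 with no minimum. Genes 2-fold lower numbered 18, 20, 17 and 2068 with no macrophage UMI, without other marker cells, at 100 UMIs and with no minimum. The sprouting list was at -0.39 without the highest Scrublet scores and -0.40 without other marker cells. The interferon list was at -0.83 without other marker cells and -0.75 with each cell given the same weight. The median of the interferon list stayed below 0 under 15 of 15 settings (-0.83 to -0.41), as did those of MHC class I (-0.65 to -0.43) and sprouting (-0.78 to -0.39).

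Signs turned as follows. With no macrophage UMI: venous -0.14, pan-leukocyte 0.83, monocyte and macrophage 2.37, pericyte -1.25, Nts -2.29, Fxyd6 -0.51, Pf4 0.41, Wfdc17 2.47, Il1b 0.53, Clec4e 0.63 and Fabp5 0.23. Without the highest Scrublet scores: capillary 0.063, Nts -1.54, Fxyd6 -0.13, Lcn2 -0.72, Cpe -0.10, Fabp4 0.22 and Cdh5 0.000274. Without Ptprc-positive cells: Fabp5 0.22. Without the deepest cell: Nts -1.58, Fxyd6 -0.30 and Fabp4 0.048. Without other marker cells: capillary 0.20, venous -0.45, fatty acid 0.11, Nts -1.21, Fxyd6 -0.35, Lcn2 -1.95, Lrg1 -0.70, Aebp1 -0.43, Wfdc17 0.30, S100a9 0.00086, Clec4e 0.039, Bcl2a1b 0.30, Fabp4 0.21, Fabp5 1.04 and Cdh5 0.079. With each cell given the same weight: venous -0.0651, mesenchymal transition -0.11 and pericyte -0.18. Beyond the cells left out, the cause was not tested. Apln was below 0 under 14 of 14 settings (-2.01 to -0.91). The exclusion of the deepest cell and that of other marker cells were added after the data had been seen. With 74 and 83 cells, genes under 20 UMIs could not be compared.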
